A study of Mus musculus with 6 samples.

Results

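10 genes that encode chromatin repressors of 2-cell transcription were followed in mouse myoblasts in which a Dux-type transcription factor was switched on. They were chosen by name, as known restraints on 2-cell-like transcription in mouse embryonic stem cells, and all 10 were found among the 24028 genes of the count table. They are Trim28, Setdb1, Chaf1a, Chaf1b, L3mbtl2, Pcgf6, Rif1, Ehmt1, Ehmt2 and Kdm1a. The cells are C2C12, an immortalised mouse myoblast line, in 1 clonal derivative that carries MMH, a doxycycline-inducible and codon-altered chimera. In MMH the homeodomains and the N-terminal stretch around them come from mouse Dux, and the C-terminal stretch beyond the homeodomains from human DUX4. All cultures grew in 2.6 µg/ml puromycin. Doxycycline at 2 µg/ml was given to 3 cultures (induced) and withheld from 3 others (uninduced), each sequenced as its own library. The series text gives 18 h and the sample protocol 36 h of doxycycline, so the duration is uncertain. A doxycycline control lacking MMH was not analysed here, and drug and transgene cannot be told apart.

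Genes of the 2-cell embryo are transcribed in a brief burst at the onset of zygotic transcription and are then silenced. In embryonic stem cells several chromatin systems keep them silent, and loss of 1 of these systems raises the share of cells that express Dux, Zscan4 and their neighbours. TRIM28 is brought to DNA by KRAB zinc-finger proteins and recruits SETDB1, which trimethylates histone H3 lysine 9. CAF-1, made of CHAF1A, CHAF1B and RBBP4, loads new histones H3 and H4 behind replication forks. L3MBTL2 and PCGF6 are subunits of the variant Polycomb complex PRC1.6. RIF1 binds PP1 phosphatase and controls replication timing. EHMT1 (GLP) and EHMT2 (G9a) together mono- and dimethylate H3 lysine 9, and KDM1A (LSD1) removes methyl groups from H3 lysine 4. The values below are messenger RNA levels in myoblasts, and protein was not measured.

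The libraries held 21503384 to 24489531 counts. Levels are in CPM, the gene's counts relative to all counts of the library times 1e6, on library sizes scaled by TMM, a method that places the middle of most genes at no change. TMM was used because embryonic families took up a part of the induced libraries. In sum 8 listed 2-cell genes rose from between 706 and 729 to between 177678 and 182749 TMM-scaled CPM. Among them are 3 Zscan4 genes whose near-identical copies may share reads. TMM-scaled CPM are not shares of a library. In induced replicate 1, Zscan4c, Zscan4d and Zscan4f had 1205625, 606969 and 1219813 of 24477596 counts. Without TMM, by total counts alone, the median of all tested genes lay at -0.97 on the log2 scale, a shift of 0.96 from TMM. The part of the 8 genes in this shift was not tested. An added RNA standard is not mentioned in the labels, so every direction is relative to the middle of all genes unless library size is named. In bulk RNA, fewer cells with a transcript and less RNA per cell cannot be told apart. As for the labelled cell type, 7 of 8 listed myoblast markers had enough counts to be tested. The list summed to between 1964 and 1985 CPM without and between 1288 and 1319 CPM with doxycycline, and 5 of its genes were lower and 1 higher. Msc, the untested one, was at or near 0. The 5 embryonic stem cell markers summed to 0.744 to 1.08 and 9.38 to 11.7 CPM, with Pou5f1 and Tdgf1 at 0 in every library. Nanog rose from a mean of 0.768 to 7.57 CPM, Sox2 from 0 to 1.29 CPM and Esrrb from 0.178 to 1.56 CPM. These rises were also called by library size alone. Macrophage markers summed to 0.898 to 1.33 and 1.42 to 1.65 CPM, endothelial markers to 0.0647 to 0.459 and 2.05 to 2.41 CPM, and adipocyte markers to 0.389 to 0.582 and 6.83 to 7.96 CPM, with Lep at 0. Almost all of the adipocyte sum was Fabp4, at means of 0.466 and 7.06 CPM. The 4 fibroblast markers summed to 921 to 1019 and 719 to 749 CPM, almost all of it Col3a1, with Dpt and Lum at or near 0. Pdgfra went the other way, from 13.1 to 49.6 CPM on average, a log2 fold change of 1.91. The part of the falling myoblast markers in the results below was not tested.

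The 250 bases before the RefSeq start site (GRCm38.p6) are shown for the 2 genes that fell most and the 2 that rose most, since these carry the main differences. Capitals mark GGCGGGAA on either strand, a form of the site that E2F cell cycle factors bind, and this motif was added after the sequences were seen.
Chaf1a, chr17:56040166-56040415, plus strand: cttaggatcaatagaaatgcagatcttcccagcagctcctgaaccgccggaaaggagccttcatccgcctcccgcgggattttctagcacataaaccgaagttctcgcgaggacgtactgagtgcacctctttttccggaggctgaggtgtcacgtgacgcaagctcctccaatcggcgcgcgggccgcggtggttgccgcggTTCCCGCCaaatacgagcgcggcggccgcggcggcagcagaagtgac
Chaf1b, chr16:93883651-93883900, plus strand: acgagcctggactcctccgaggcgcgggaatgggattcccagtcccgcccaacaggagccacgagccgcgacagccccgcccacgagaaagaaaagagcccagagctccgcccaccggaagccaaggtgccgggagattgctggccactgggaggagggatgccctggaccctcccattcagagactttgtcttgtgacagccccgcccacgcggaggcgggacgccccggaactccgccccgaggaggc
Kdm1a, chr4:136602724-136602973, minus strand: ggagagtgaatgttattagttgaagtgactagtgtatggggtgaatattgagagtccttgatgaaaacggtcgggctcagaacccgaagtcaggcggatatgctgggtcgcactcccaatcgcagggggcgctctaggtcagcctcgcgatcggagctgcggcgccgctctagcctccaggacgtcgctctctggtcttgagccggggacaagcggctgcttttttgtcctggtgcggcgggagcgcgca
Trim28, chr7:13023902-13024151, plus strand: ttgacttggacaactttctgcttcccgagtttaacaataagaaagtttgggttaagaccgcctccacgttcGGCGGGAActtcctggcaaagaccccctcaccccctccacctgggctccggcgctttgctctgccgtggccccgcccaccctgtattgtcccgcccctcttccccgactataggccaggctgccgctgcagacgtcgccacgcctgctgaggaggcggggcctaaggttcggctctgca
The motif was found in 1 place each at Chaf1a, at position -47 from the start site on the minus strand, and at Trim28, at position -179 on the plus strand, so it stood before 1 gene that fell and 1 that rose. It occurred in 1.86% of 32851 promoter windows of this length. Neither TTTCCCGC nor TTTGGCGC, other E2F-type letters present in 0.895% and 0.417% of windows, was found before any of the members that matched. A form of the double homeodomain site that Dux-type proteins bind, TGATT and AATCA with 1 base of any kind between them, was found before none of them and in 0.0304% of all windows. Both strands were searched, and GGCGGGAA read on the other strand shares most of its letters with TTTCCCGC. RefSeq windows matched 9 of the 10 genes, Ehmt2 with 2 windows, and Rif1 had no entry. The members' 10 windows were rich in G and C, with a median of 61.6% against 52.4% over all windows, and held a median of 19.5 CG dinucleotides against 6. Both values are descriptions of windows chosen by gene name.

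All 10 genes passed the filter on low counts, and each had at least 120 counts in every library of both groups, the lowest being Pcgf6. In induced cells 5 members were higher, 3 were lower and 2 passed no threshold by edgeR's quasi-likelihood test at a Benjamini-Hochberg adjusted p of 0.05. Over all 12969 tested genes 82.5% were called, 41.3% higher and 41.2% lower, so the members were called about as often as genes in general. Induced and uninduced CPM did not overlap for 8 of the 10, against 83.1% of all tested genes. Their median log2 fold change was 0.14, against -0.01 over all tested genes, with a range from -1.01 to 1.21. By library size alone 1 member was higher and 8 were lower, against 15.2% and 76.7% of all tested genes. The repressors therefore did not move as a block, and their differences are described by complex below.

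**Figure D1:**
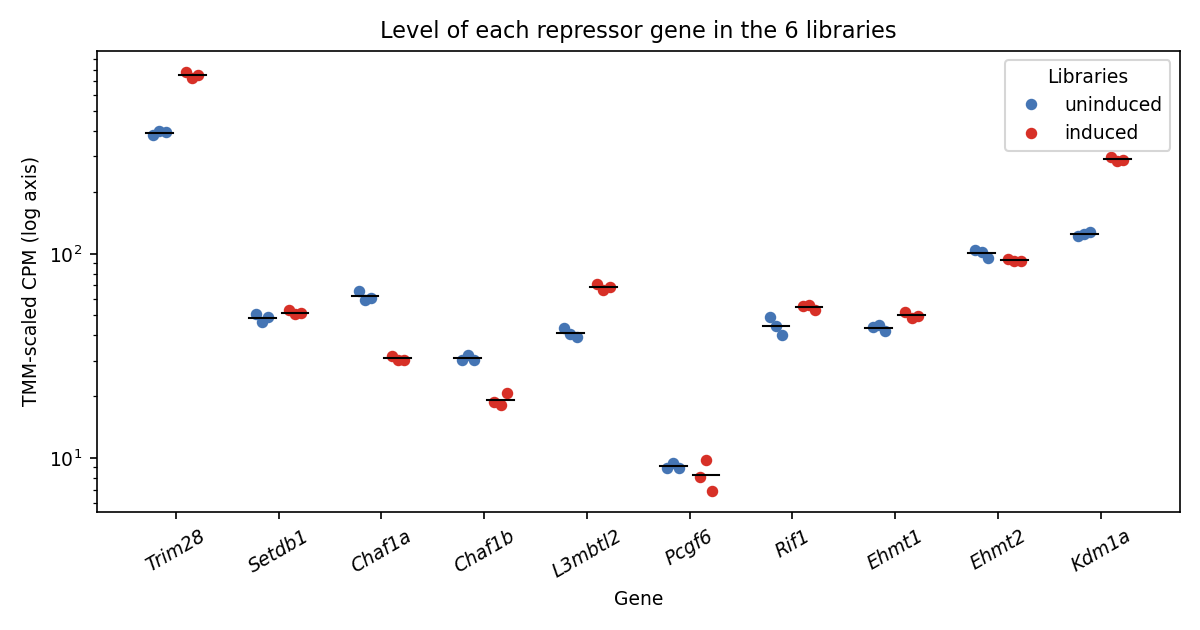
Level of each repressor gene in TMM-scaled CPM (vertical log axis) in the 3 uninduced (blue) and 3 induced (red) libraries, each point a library and each bar a group mean. The red points of Trim28, L3mbtl2 and Kdm1a lie above the blue ones and those of Chaf1a and Chaf1b below, whereas the points of Setdb1 and Pcgf6 overlap.

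Both CAF-1 genes among the 10 fell, and Chaf1a fell the most of the 10 genes. Rbbp4, the remaining CAF-1 subunit gene, is not among the 10 and did not fall under TMM. It lay at 465 ± 7.24 and 560 ± 12.8 CPM (SD, n = 3), and edgeR put the log2 difference at 0.27 ± 0.04 (SE, adjusted p = 9.4e-07). Chaf1a, the large p150 subunit that binds PCNA and HP1, lay at 65.5, 59.3 and 60.8 CPM in uninduced libraries and at 31.7, 30.3 and 30.2 CPM in induced libraries. The groups were far apart, with every induced library near 30 CPM. The means were 61.9 ± 3.22 and 30.8 ± 0.854 CPM (SD, n = 3 each), and edgeR put the log2 difference at -1.01 ± 0.06 (SE, adjusted p = 4.7e-14). A lower fold change was measured for 12.6% of tested genes. Chaf1b, the p60 subunit (GRCm38 chromosome 16, 93883901 to 93906115, plus strand, 14 exons), lay at 30.2, 32.0 and 30.1 CPM without and 18.8, 18.2 and 20.8 CPM with doxycycline. It fell from 30.8 ± 1.09 to 19.3 ± 1.33 CPM (SD, n = 3), and edgeR put the log2 difference at -0.67 ± 0.07 (SE, adjusted p = 3.1e-09). Library size as the only scaling moved the median of all tested genes to -0.97, and with it Chaf1a was at -1.97 and Chaf1b at -1.64. Being lower under TMM, upper-quartile and library-size scaling alike was shared by 41.2% of all tested genes. These are all the genes called lower under TMM, so it adds nothing to the TMM call. The principal Chaf1a transcript of GENCODE M21 (chromosome 17, 56040439 to 56070276 of GRCm38, plus strand, 14 exons) shares 2692 of its 5535 bases with exons of Ubxn6 on the other strand. The strand setting of the counting is not given in the sources used here, so reads of the pair may be mixed. Ubxn6 itself lay at 13.8 ± 0.984 and 14.2 ± 0.860 CPM (SD, n = 3) and its groups overlapped.

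Most other genes of histone H3 and H4 handling went the other way under TMM. Of 10 listed chaperones and partners, 8 were higher and 2 lower, with a median log2 fold change of 0.47. Over all tested genes 41.3% were higher and 41.2% lower. Daxx, which deposits H3.3 with ATRX, rose by 1.59 ± 0.06 (SE), and Ubn1, of the HIRA complex, rose by 1.00 ± 0.05. Cabin1 and Hira, also of the HIRA complex, fell by 0.71 ± 0.06 and 0.39 ± 0.06 on the log2 scale. Pcna, the replication clamp that recruits CAF-1 and was picked here with its value known, lay at 226 ± 9.21 and 370 ± 2.77 CPM (SD, n = 3), opposite in direction to Chaf1a. The scaling decides this majority: by library size alone 1 of the 10 was higher and 8 lower, against 15.2% and 76.7% of all tested genes. Pcna was then at -0.25, and Daxx was the 1 that stayed higher. These shares of all tested genes, by TMM and by library size, apply to each list count below.

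Kdm1a (GRCm38 chromosome 4, 136550540 to 136602723, minus strand, 19 exons) showed the largest rise. It lay at 123, 125 and 128 CPM in uninduced and 297, 285 and 289 CPM in induced libraries, with little spread within either group. The means of 125 ± 2.55 and 290 ± 6.25 CPM (SD, n = 3) differed by 1.21 ± 0.04 in log2 units (SE, adjusted p = 1.3e-18 by edgeR). Its fold change was above that of 85.2% of tested genes. Kdm1a was also the only member called higher by library size alone, where its CPM went from 175 ± 3.58 to 208 ± 4.54 (SD, n = 3), and edgeR put the log2 difference at 0.25 ± 0.04 (SE, adjusted p = 3.1e-06). Being higher under TMM, upper-quartile and library-size scaling alike was shared by 15.2% of all tested genes.

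The partners of KDM1A in CoREST-type complexes were mixed, with 6 of 11 higher, 3 lower and 2 not called and a median of 0.37 on the log2 scale. Zmym2, a zinc-finger protein that binds the complex, rose by 1.30 ± 0.04 (SE) and the deacetylase Hdac1 by 1.05 ± 0.04. Rcor3, a CoREST scaffold, fell by 0.33 ± 0.09, and Zmym3 fell by 0.32 ± 0.06. With library size alone 1 was higher, Zmym2, and 7 were lower, while Hdac1 stood at 0.089 (edgeR adjusted p = 0.051).

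Trim28 was the most abundant of the 10 and rose next most, by TMM scaling, while Setdb1, the enzyme it recruits, was not called. Trim28 (GRCm38 chromosome 7, 13024152 to 13031035, plus strand, 17 exons) lay at 383, 398 and 395 CPM in uninduced and 781, 726 and 751 CPM in induced libraries. These groups did not overlap, and the means of 392 ± 8.14 and 753 ± 27.5 CPM (SD, n = 3) differed by 0.94 ± 0.04 in log2 units (SE, adjusted p = 1.9e-16 by edgeR). This rise is close to the shift of 0.96 between scalings. As a part of all counts Trim28 was at 547 ± 12.8 and 538 ± 19.4 CPM without TMM (SD, n = 3), a log2 fold change of -0.023 (edgeR adjusted p = 0.588), so its share of total messenger RNA counts was nearly level. Setdb1 (GRCm38 chromosome 3, 95323525 to 95357200, minus strand, 22 exons) lay at 51.0, 46.1 and 48.8 CPM without and 52.8, 50.7 and 51.2 CPM with doxycycline, and the groups overlapped. Its log2 fold change of 0.084 had a 95% interval from -0.027 to 0.19 (edgeR adjusted p = 0.15). With upper-quartile scaling it was at -0.061 (edgeR adjusted p = 0.286), and with library size alone at -0.88.

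Of 12 listed genes for SETDB1 cofactors, HP1 proteins and the HUSH silencing complex, 5 were higher, 4 lower and 3 not called, with a median of 0.048. Atf7ip, the cofactor that stabilises SETDB1 in the nucleus, rose by 1.57 ± 0.05 (SE). Zfp809, a KRAB zinc-finger protein that silences retroviral elements through TRIM28, rose by 1.71 ± 0.10. Cbx5, which encodes HP1α, fell from 418 ± 12.7 to 154 ± 5.13 CPM (SD, n = 3), which is -1.44 ± 0.04 in log2 units (SE), and Fam208a, the TASOR scaffold of HUSH, fell by 0.93 ± 0.10. All 4 of these kept their direction and call under library-size and upper-quartile scaling. Every gene called lower under TMM did so, and 15.2% of all tested genes were higher under all 3 scalings.

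Within PRC1.6, L3mbtl2 rose and Pcgf6 was not called. L3mbtl2, an MBT-domain reader (GRCm38 chromosome 15, 81663889 to 81688315, plus strand, 17 exons), lay at 43.5, 40.6 and 38.9 CPM in uninduced and 71.5, 66.8 and 69.2 CPM in induced libraries. The lowest induced library stood well above the highest uninduced one, and the log2 difference was 0.75 ± 0.05 (SE, adjusted p = 4.2e-12 by edgeR). By library size alone it was called the other way, at -0.21 ± 0.05 (SE, edgeR adjusted p = 0.00083). Exons of Chadl on the opposite strand cover 558 of the 3487 bases of the principal L3mbtl2 transcript, but Chadl had only 134 counts over all libraries against 7389 for L3mbtl2. Pcgf6, the RING-finger subunit that sets this complex apart, had the lowest level of the 10. It (GRCm38 chromosome 19, 47033617 to 47050904, minus strand, 10 exons) lay at 8.95, 9.48 and 8.95 CPM without and 8.09, 9.77 and 6.89 CPM with doxycycline. The induced libraries spread on both sides of the uninduced ones, and the log2 fold change of -0.15 had a 95% interval from -0.39 to 0.081 (edgeR adjusted p = 0.214). Pcgf6 was called lower without induced replicate 2, at -0.28 (edgeR adjusted p = 0.032), and with upper-quartile scaling, at -0.30 (edgeR adjusted p = 0.018).

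The other PRC1.6 subunits also went both ways, with 6 of 12 higher, 4 lower and 2 not called and a median of 0.14. Rybp, which binds RING1 proteins and stimulates the ubiquitin ligase, rose by 1.59 ± 0.05 (SE). Rnf2, the catalytic RING1B subunit, rose by 1.12 ± 0.05. Of a DNA-binding pair of subunits, Tfdp1 fell from 150 ± 0.425 to 54.2 ± 2.57 CPM (SD, n = 3), which is -1.47 ± 0.05 in log2 units (SE), and E2f6 fell by 0.78 ± 0.08. Mga and Max, which form the other DNA-binding module and were picked here with their values known, were at 0.10 (edgeR adjusted p = 0.225) and 0.17 (edgeR adjusted p = 0.0045). By library size 2 subunits, Rybp and Rnf2, remained higher and 8 were lower.

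The G9a and GLP genes differed little from the middle of all genes. Ehmt1 (GRCm38 chromosome 2, 24789928 to 24919614, minus strand, 27 exons) lay at 43.6, 44.8 and 41.8 CPM in uninduced and 51.8, 48.5 and 49.5 CPM in induced libraries, without overlap, and edgeR put the log2 difference at 0.20 ± 0.05 (SE, adjusted p = 0.0014). It was not called with upper-quartile scaling, at 0.057 (edgeR adjusted p = 0.324), and was at -0.76 by library size alone. Ehmt2 (GRCm38 chromosome 17, 34898971 to 34914051, plus strand, 27 exons) lay at 105, 102 and 95.4 CPM without and 94.7, 92.1 and 92.7 CPM with doxycycline. The gap between its groups was under 1 CPM, and the log2 difference was -0.11 ± 0.05 (SE, adjusted p = 0.028 by edgeR). That call was lost without uninduced replicate 1 (edgeR adjusted p = 0.088), uninduced replicate 2 (0.085), induced replicate 2 (0.077) or induced replicate 3 (0.087), and with RLE scaling (0.059). Of 6 listed partners and other H3 lysine 9 methyltransferases, 3 were higher, 2 lower and 1 not called, with a median of 0.39. Setdb2 rose by 1.32 ± 0.09 (SE) and Cdyl, a chromodomain corepressor, by 0.74 ± 0.09. Suv39h1 and Suv39h2, which trimethylate H3 lysine 9 in heterochromatin, fell by 0.17 ± 0.05 and 0.42 ± 0.09 on the log2 scale. By library size 1 of the 6, Setdb2, was higher and 5 lower, with Cdyl at -0.23.

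Rif1 (GRCm38 chromosome 2, 52072832 to 52122383, plus strand, 36 exons) lay at 49.3, 44.2 and 40.1 CPM in uninduced and 55.5, 56.0 and 53.1 CPM in induced libraries. The uninduced libraries spread more than the induced ones and stayed below them, and the log2 difference was 0.30 ± 0.06 (SE, adjusted p = 0.00018 by edgeR). By library size alone it was lower, at -0.66 ± 0.06 (SE). Of 7 genes for its partners and the kinase it opposes, 5 were lower and 2 higher, with a median of -0.28. Ppp1ca, a catalytic subunit of PP1, fell by 0.56 ± 0.04 (SE), as did the replication kinase gene Cdc7 by 0.50 ± 0.08. Trp53bp1, which recruits RIF1 to DNA breaks, rose by 1.03 ± 0.05, and Dbf4, the activating subunit of CDC7, rose by 0.53 ± 0.05. With library size alone Trp53bp1 was at 0.066 (edgeR adjusted p = 0.212) and Dbf4 at -0.43, and 6 of the 7 were lower.

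**Figure D2:**
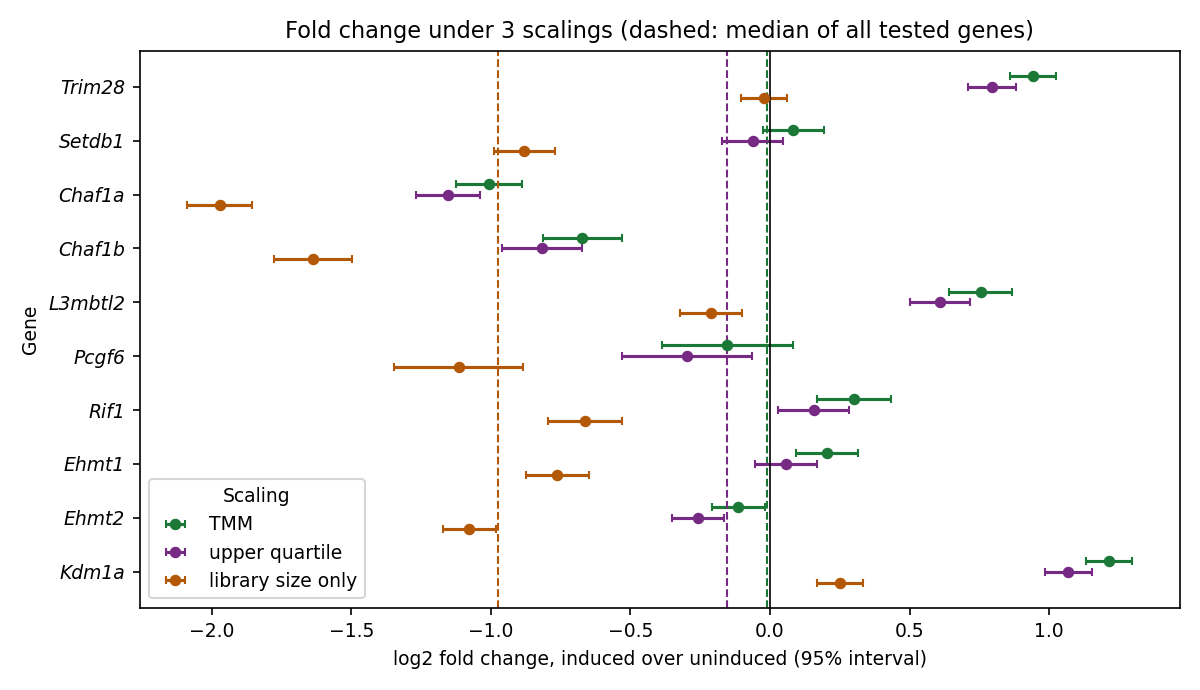
Log2 fold change (induced over uninduced) of each repressor with its 95% interval under TMM (green), upper-quartile (purple) and library-size-only (orange) scaling, with the median of all tested genes under each as a dashed line. Kdm1a is right of 0 and Chaf1a, Chaf1b and Ehmt2 left of 0 under all 3, whereas Trim28, L3mbtl2, Rif1 and Ehmt1 change side with library size alone.

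Ratios between members within a library do not depend on the scaling of libraries, and 4 pairs were compared, with folds taken between geometric means. Trim28 had 7.50, 8.63 and 8.09 counts for each Setdb1 count in uninduced libraries and 14.8, 14.3 and 14.7 in induced libraries, a 1.81-fold rise of the ratio. The L3mbtl2 to Pcgf6 ratio was 4.86, 4.28 and 4.35 without and 8.84, 6.84 and 10.04 with doxycycline, a 1.89-fold rise with more spread among induced libraries. Within CAF-1, Chaf1a had 2.17, 1.85 and 2.02 counts for each Chaf1b count without and 1.69, 1.66 and 1.46 with doxycycline, with every induced ratio below every uninduced one. The Ehmt1 to Ehmt2 ratio rose from 0.431 ± 0.0135 to 0.536 ± 0.0104 (SD, n = 3), 1.24-fold. Groups did not overlap for any of the 4 ratios. How often this holds for other gene pairs was not counted, and 83.1% of single tested genes did not overlap in CPM. The exact two-sided permutation p was 0.1 for each of the 4 ratios, also after Benjamini-Hochberg adjustment over them. This is the smallest p that 3 against 3 libraries allow.

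**Figure D3:**
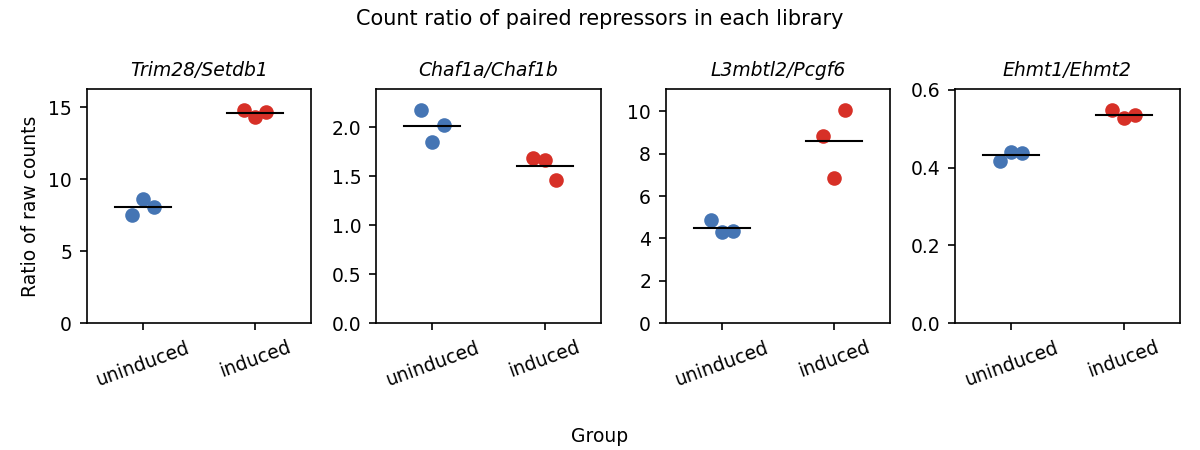
Ratio of raw counts of 2 repressors in each uninduced (blue) and induced (red) library, with a bar at each group mean and the vertical axis from 0. The induced libraries lie above the uninduced ones for Trim28/Setdb1, L3mbtl2/Pcgf6 and Ehmt1/Ehmt2 and below them for Chaf1a/Chaf1b.

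Levels between genes were compared as CPM per kilobase of the principal GENCODE M21 transcript. Trim28 was highest in uninduced cells at 121 ± 2.51 CPM per kilobase (SD, n = 3), followed by Kdm1a at 41.6 ± 0.849, Ehmt2 at 25.03 ± 1.21 and Chaf1b at 16.01 ± 0.570. L3mbtl2, Chaf1a and Setdb1 came next, at 11.8 ± 0.660, 11.2 ± 0.582 and 10.4 ± 0.528, and overlapped with their neighbour in that order. Ehmt1, Rif1 and Pcgf6 were lowest, at 7.29 ± 0.255, 5.23 ± 0.542 and 4.23 ± 0.142. Induced cells kept Trim28, Kdm1a and Ehmt2 as the leading genes, at 232 ± 8.49, 96.5 ± 2.08 and 23.1 ± 0.343 CPM per kilobase. Chaf1a moved from rank 6 to rank 9, at 5.56 ± 0.154, with only Pcgf6 below it. The long Chaf1a transcript lowers its level on this scale, and the isoforms present were not measured.

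A further list of 13 genes reported to restrain 2-cell transcription was again mixed, and 6 of the 13, E2f6, Max, Mga, Morc3, Rnf2 and Zmym2, were already counted in the partner lists above. Of all 13, 7 were higher and 4 lower, with a median of 0.16. Ythdc1, a reader of N6-methyladenosine, rose from 58.0 ± 0.343 to 231 ± 6.97 CPM (SD, n = 3), which is 1.99 ± 0.04 in log2 units (SE), and Zmym2 is given above. Besides E2f6, Sumo2, a SUMO modifier gene, fell most, by 0.70 ± 0.04. With library size alone 3 of the 13 were higher and 9 lower.

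H3 lysine 9 demethylases remove methyl groups from the residue that SETDB1, G9a and GLP methylate. The 9 listed genes for them were all higher under TMM and upper-quartile scaling. By library size alone 4 of the 9 were higher and 4 lower, against 15.2% and 76.7% of all tested genes. All 9 listed genes rose under TMM, with a median of 0.84 on the log2 scale, against 41.3% of all tested genes called higher. Kdm4d lay at 0.283 ± 0.0397 CPM in uninduced and 60.5 ± 2.18 CPM in induced libraries (SD, n = 3), which is 7.70 ± 0.12 in log2 units (SE). Kdm3a rose from 37.0 ± 0.538 to 115 ± 7.31 CPM (SD, n = 3), by 1.63 ± 0.05 on the log2 scale. By library size alone Kdm3a, Jmjd1c, Kdm4b and Kdm4d stayed higher. Of 3 listed activators of 2-cell transcription, Dppa2 rose by 5.27 ± 0.18 (SE) to 12.8 ± 0.932 CPM (SD, n = 3) and Nelfa was not called. Dppa4, at 0.393 ± 0.0833 and 0.747 ± 0.165 CPM (SD, n = 3), was called higher, but not without uninduced replicate 1 (edgeR adjusted p = 0.084) or induced replicate 1 (0.107), with no filter on low counts (0.056), nor with DESeq2 (0.132).

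**Figure D4:**
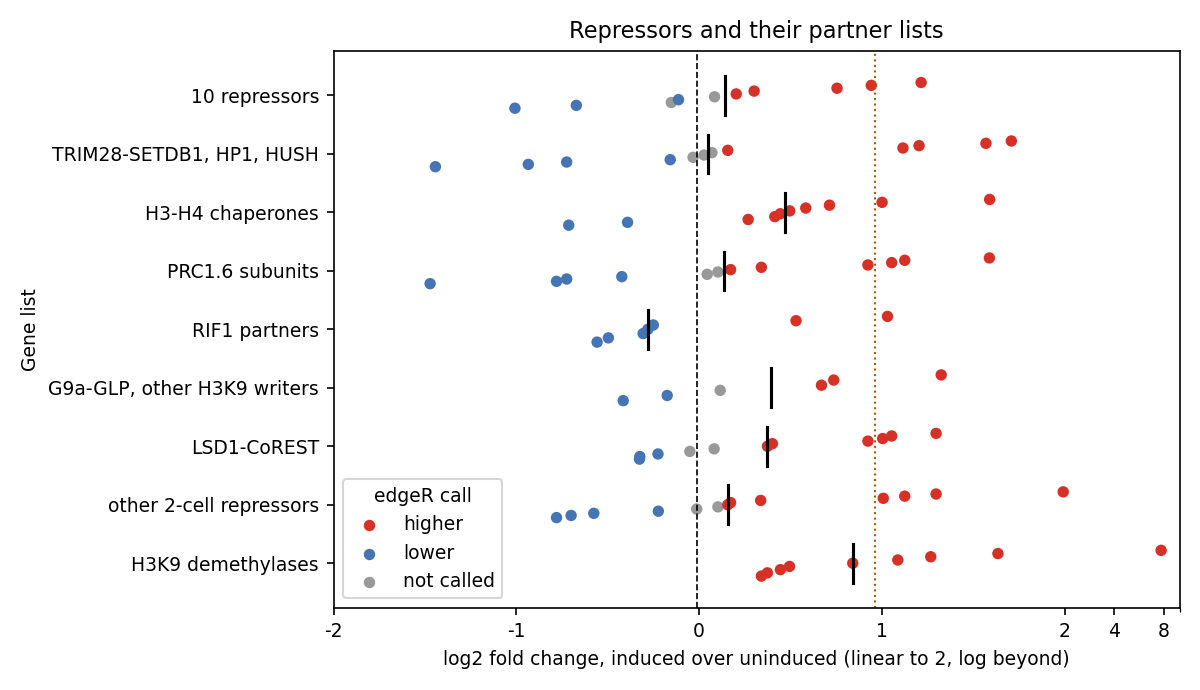
Log2 fold change (induced over uninduced, TMM scaling, linear to 2 and logarithmic beyond) of each tested gene in the repressor set and in 8 lists of partners, called higher (red), lower (blue) or not called (grey), with list medians as bars. The dashed line is the median of all tested genes and the dotted line, at 0.96, is the shift between TMM and library-size scaling, left of which most rises turn to falls by library size. The 9 demethylase genes all lie right of 0, whereas the repressors and every other list lie on both sides.

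Targets that these repressors keep silent in stem cells were read in the same libraries. All 8 listed 2-cell genes rose, with a median of 8.70, and by library size as well. The highest rises were those of Tcstv1, at 10.06 ± 0.08 (SE), and Tmem92, at 9.87 ± 0.09. MMH, a Dux-type factor, was switched on in the same libraries, and its part and that of the repressors in these rises was not tested. Germline genes silenced by PRC1.6, G9a or SETDB1 stayed near 0 in most cases. Only 2 of the 12 had enough counts to be tested, and the 12 summed to between 0.754 and 1.29 CPM without and between 4.56 and 5.17 CPM with doxycycline. Most of the induced sum came from Stk31, with 0, 2 and 2 counts in uninduced and 50, 52 and 62 counts in induced libraries. Dazl and Mael had no count in any library.

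For the member that rose most and the one that fell most, the genes with the closest profile were looked up among tested genes with a mean of 1 CPM or more. Sfpq, Ndel1 and B4galt3 were closest to Kdm1a, and Dars, Akt2 and Rps6ka2 to Chaf1a, each at a Pearson r of 1.00 in log2 CPM over the 6 libraries. With 2 well-separated groups such values describe mainly the difference between groups.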

How the data were processed

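TruSeq chemistry on polyadenylated RNA was used for the libraries, per the labels' protocols. The submitters' processing notes list CASAVA, TopHat2 2.0.12, Bowtie2 2.2.3 and the mouse build mm10, without their order or settings. The authors deposited raw counts of reads per Entrez gene. Which counter, strand setting and annotation produced them is not given in the sources used here. Differences were tested with edgeR 4.0.16 in R 4.3.3 (filterByExpr defaults, TMM, glmQLFit with robust=TRUE, glmQLFTest, two-sided, with a term for group alone), adjusted by Benjamini-Hochberg over all 12969 tested genes with 0.05 as the threshold. The SE of a fold change was taken from its F statistic (log2 value over the root of F). On counts simulated for this comparison, with known changes among 12817 genes, this called 88% of changes of 0.5 and 100% of changes of 1 on the log2 scale, and 16 of 12617 unchanged genes. These 12617 were most of the 12817 genes, whereas 82.5% of tested genes were called in the 6 libraries. The simulated counts had the same dispersion (spread between replicates beyond counting noise) for every gene. They held no shift between scalings such as the 0.96 in these libraries. The rates with that many genes called, or with such a shift, were not tested. Separate cultures of 1 clone are the replicates. Besides the members, up to 2 rising and 2 falling genes past the threshold were named in each list. Further genes were named outside this rule with their values known, among them Rbbp4, Pcna, Mga, Max, Jmjd1c, Kdm4b, Nelfa and the cell type markers. The members and lists were chosen with earlier results of these data known. Coordinates and lengths come from GENCODE M21, and 2 listed symbols (Tasor and Resf1) were matched to the table's rows by gene identifier. Alternatives were upper-quartile, RLE and library-size scaling, DESeq2 1.42.0, voom from limma 3.58.1, TMM without the 100 most abundant induced genes, no count filter, robust=FALSE, a replicate block and each library left out.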

Additional observations from a re-analysis of the deposited data

How the results depend on the processing

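Calls for Trim28, Chaf1a, Chaf1b, L3mbtl2, Rif1 and Kdm1a held under every alternative other than library-size scaling, and those of Chaf1a, Chaf1b and Kdm1a held there too. For Chaf1a and Chaf1b this adds nothing, since all 5347 genes lower under TMM were lower there as well. With library size as the only scaling, 1977 genes were higher and 9949 lower in all, and 1 member was higher and 8 lower. Under it Trim28 was at -0.023, Setdb1 at -0.88, L3mbtl2 at -0.21, Rif1 at -0.66 and Ehmt1 at -0.76, each opposite in sign to TMM, and Pcgf6 was called lower at -1.12. Among partners Dbf4 was then at -0.43, Cdyl at -0.23, Dppa4 at -0.017 and Pcna at -0.25, also opposite in sign. With upper-quartile scaling Setdb1 was at -0.061, opposite in sign and not called, Pcgf6 was called lower at -0.30, and Ehmt1 was not called at 0.057. With RLE scaling Ehmt2 was not called, at -0.095. Leaving out 1 library at a time left 10362 to 10691 genes and 7 or 8 members called, with Ehmt2 between -0.16 and -0.085 and Pcgf6 between -0.28 and -0.033. With a replicate block Kdm1a was at 1.21 and Chaf1a at -1.01 on the log2 scale, and the block changed no member's call, with 10813 genes called. The labels do not say that a number marks a shared batch, and the deviations of same-numbered libraries from their group means correlated at 0.0831, 0.0134 and 0.051, each library correlating best with its own number except uninduced replicate 2. DESeq2, limma-voom, TMM without the most abundant genes, no count filter and robust=FALSE changed no member's call. Depth limits Pcgf6 most, with 120 to 299 counts per library.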
